A study of Mus musculus with 22 samples.

Results

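Expression of 9 enzymes that make the lipids of the myelin sheath was measured by RNA sequencing of the mouse anterior cingulate cortex (ACC): Ugt8a, Gal3st1, Fa2h, Aspa, Cers2, Elovl1, Elovl7, Sptlc2 and Degs1. They were taken from the table by gene symbol. The 9 symbols were found among the 37786 genes of the deposited count table, and 9 of 9 were among the 17524 genes that had at least 10 counts in at least 10 mice.

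The libraries came from bulk ACC tissue of 22 male wildtype C57BL/6J mice, each mouse being 1 sample. Every mouse, controls included, carried AAV5-CaMKIIa-ChR2(H134R)-EYFP in the basolateral amygdala (BLA) of both sides, a virus that puts a light-gated channel into excitatory neurons by the CaMKIIa promoter, and an optic fibre in the ACC. Mice were 8 weeks old at the start and housed alone after the implant. The 10 stimulated mice (stim) received light in 9 sessions, which drives BLA terminals in the ACC, whereas the 12 control mice (ctrl) went through the same steps with the light off. Tissue was taken 48 h after the last session. The question was which transcripts in the ACC differ after repeated activation of the BLA–ACC pathway.

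Myelin is rich in galactolipids, which oligodendrocytes build from ceramide. Serine palmitoyltransferase starts the sphingoid base, ceramide synthases join it to a fatty acid that elongases have lengthened, and the ceramide is then given a galactose and, on part of the molecules, a sulfate. Aspartoacylase frees acetate from the N-acetylaspartate that neurons release, and that acetate can be used for lipid synthesis in oligodendrocytes.

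In the GENCODE M21 annotation (GRCm38, the mm10 coordinates) each of the 9 is a protein-coding gene. Ugt8a lies on the minus strand of chromosome 3 from 125865271 to 125938619, Aspa on the minus strand of chromosome 11 from 73304992 to 73329596, and Fa2h on the minus strand of chromosome 8 from 111345135 to 111393824. Counts summed over exons can take reads from a neighbour where exons overlap and strand is not used. Exons of Cers2 shared 144 bases with the antisense gene 6330562C20Rik and 75 bases with Setdb1, and exons of Elovl1 shared 53 bases with Cdc20, all on the opposite strand, and the other 7 genes shared no exon bases with another gene.

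The stretch of 250 bases upstream of the RefSeq transcription start (GRCm38.p6) was at hand for 8 of the 9 genes, Fa2h being the exception. Those of Ugt8a, Aspa and Sptlc2 are shown because the first is the gene with the largest group difference, the second followed the oligodendrocyte markers most closely and the third followed them least. The lines read 5′ to 3′ on the coding strand, and capitals mark GGGCGG or its complement, the GC box bound by the SP family of factors.
Ugt8a, chr3:125938653-125938902, minus strand: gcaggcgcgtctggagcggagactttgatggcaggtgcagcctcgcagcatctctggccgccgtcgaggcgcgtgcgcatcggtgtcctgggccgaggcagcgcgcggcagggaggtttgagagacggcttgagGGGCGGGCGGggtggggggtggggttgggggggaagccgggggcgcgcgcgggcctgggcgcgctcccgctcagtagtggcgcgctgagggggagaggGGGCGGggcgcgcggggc
Aspa, chr11:73324638-73324887, minus strand: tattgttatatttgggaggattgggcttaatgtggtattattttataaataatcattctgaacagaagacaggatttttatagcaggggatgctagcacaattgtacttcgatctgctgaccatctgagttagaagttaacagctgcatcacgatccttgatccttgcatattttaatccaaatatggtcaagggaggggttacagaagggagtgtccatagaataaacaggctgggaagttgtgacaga
Sptlc2, chr12:87388356-87388605, minus strand: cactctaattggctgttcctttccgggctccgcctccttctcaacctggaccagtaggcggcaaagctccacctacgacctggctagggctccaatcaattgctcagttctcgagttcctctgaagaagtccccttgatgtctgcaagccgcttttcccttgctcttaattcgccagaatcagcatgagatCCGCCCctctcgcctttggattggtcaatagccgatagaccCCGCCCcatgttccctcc

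The 3 stretches differ in base composition. G and C made up 76.8% of the Ugt8a stretch, 38.8% of the Aspa stretch and 55.2% of the Sptlc2 stretch, beside a median of 52.4% over 32851 upstream stretches of all genes. The Aspa stretch lies inside the GENCODE bounds of the gene, whose 5′ end is at 73329596, so it precedes an internal start. The GC box GGGCGG was searched on both strands with overlapping matches counted. It stood 3 times in the Ugt8a stretch, 2 of them overlapping, and 2 times in the Sptlc2 stretch, but was not in that of Aspa. Of the 8 genes, 5 held it in at least 1 of their stretches, against 35.4% of all 27025 genes. The letters ACAAAG and ACAATG, cores recognised by SOX factors, and CTGGCAC and CTGGTAC, forms of the MYRF motif, were searched in the same way. ACAATG was found upstream of Gal3st1 alone, that is in 1 of 8 genes against 12.2% of all genes. ACAAAG was in 0 of 8 against 18.6%, CTGGCAC in 0 of 8 against 4.83% and CTGGTAC in 0 of 8 against 2.11%, which says only that these letters are not in these windows.

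Library totals ran from 24563116 to 36542883 counts in ctrl and from 23090483 to 43668462 in stim, and the lowest count of any of the 9 enzymes in any mouse was 220. Library names carry numbers that fall into a run from 1 to 11 (6 ctrl, 4 stim) and a run from 12 to 23 (6 ctrl, 6 stim). The study states that mice came from separate cohorts, but the labels do not say whether the runs are these cohorts, so results are given across and within runs. The runs differed at adjusted p under 0.05 (edgeR) in 68.1% of all genes tested and in 5 of the 9 enzymes. Of these, Ugt8a (log2 difference 0.99, SE 0.24), Fa2h (0.77, SE 0.28) and Elovl7 (0.38, SE 0.16) were higher in the later run, and Degs1 (-0.33, SE 0.06) and Elovl1 (-0.30, SE 0.13) were lower. The control mice with replicate numbers 9 and 11 (control 9 and control 11), both of the later run, stood apart in mature oligodendrocyte transcripts. Levels are given as CPM (counts scaled to the library's total after TMM normalisation). The summed level of 35 oligodendrocyte markers, none of them one of the 9 enzymes, was 4131 to 22883 CPM in ctrl with control 9 at the top. Without controls 9 and 11 it was 4131 to 7711 CPM in ctrl, beside 3186 to 7114 CPM in stim. Both controls were in the comparison of runs above. In stim alone, means in numbers 1 to 11 and 12 to 23 were 18.0 and 23.9 CPM for Ugt8a, 15.6 and 15.0 CPM for Fa2h and 13.4 and 13.5 CPM for Elovl7. Mitochondrial genes took 1.04% to 4.81% of counts in ctrl (median 1.76%) and 0.982% to 2.80% in stim (median 1.49%), with medians of 2.52% and 2.21% in numbers 1 to 11 and 1.51% and 1.05% in 12 to 23, and the part of this share in the enzyme differences was not tested.

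Per length, the 9 enzymes spanned a wide range of levels. As TPM, a level scaled to the summed exon length of each gene and to the library, the control median was 191 for Degs1, 71.1 for Cers2, 35.5 for Gal3st1, 24.8 for Elovl1, 20.4 for Ugt8a, 19.5 for Fa2h, 16.5 for Sptlc2, 14.3 for Elovl7 and 9.72 for Aspa. The order Degs1, Cers2, Gal3st1, Elovl1 held from each gene to the next in 22 of 22 mice. Below that the order differed by library-number run. Elovl1 was over Ugt8a in 10 of 10 mice of numbers 1 to 11 but in 3 of 12 of numbers 12 to 23, and Ugt8a was over Fa2h in 4 of 10 and in 9 of 12. Fa2h was over Sptlc2, and Sptlc2 over Elovl7, in 18 of 22 mice each, and Elovl7 over Aspa in 21 of 22.

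Stimulated mice had lower mean levels of most of the enzymes, most of all of Ugt8a, but the difference rested largely on controls 9 and 11. In the edgeR quasi-likelihood fit of group over all 17524 genes, 8 of the 9 enzymes were lower in stim, beside 47.5% of all genes. The median log2 fold change of the 9 was -0.35, beside 0.01 over all genes tested. Of the 9 enzymes, 5 were lower at unadjusted p under 0.05, namely Ugt8a, Fa2h, Aspa, Cers2 and Elovl7, beside 2.61% of all genes. At adjusted p under 0.05 the count was 0 of 9, beside 0% of all genes, and the adjusted p of each enzyme was 1. DESeq2 likewise called 0 of 9, with 3 genes called in all.

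**Figure D1:**
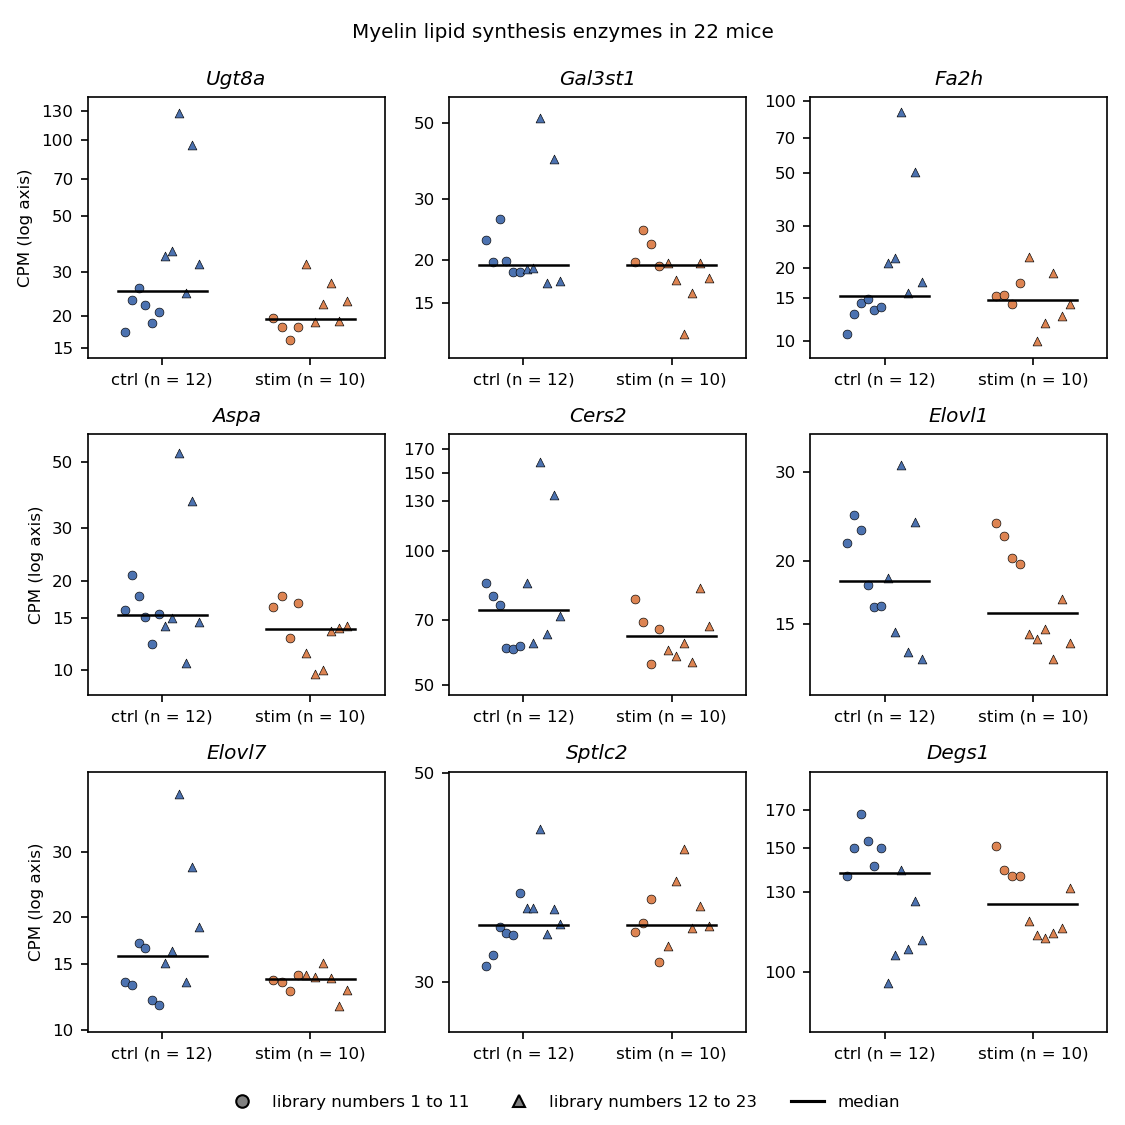
CPM (log axis) of each enzyme in 12 ctrl and 10 stim mice, 1 point per mouse, with circles for library numbers 1 to 11, triangles for 12 to 23 and a line at the group median. Control 9 is the highest of all 22 mice in 8 of the 9 panels, Ugt8a reaching 128 CPM there against at most 32.4 CPM in stim.

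Ugt8a encodes the ceramide galactosyltransferase that makes galactosylceramide, the main glycolipid of myelin. It ranged in ctrl from 17.3 to 128 CPM with a median of 25.3, and in stim from 16.1 to 32.4 CPM with a median of 19.5. The groups overlapped, yet 4 controls lay over the highest stimulated mouse and 8 of 10 stimulated mice lay under the control median. Its log2 fold change was -0.89 (SE 0.31, unadjusted p = 0.00875, edgeR), a stim-to-ctrl ratio of 0.539. It ranked 97 of 17524 genes by p.

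Gal3st1 adds the sulfate that turns galactosylceramide into sulfatide. It ran from 17.1 to 51.5 CPM in ctrl with a median of 19.3 and from 12.2 to 24.5 CPM in stim with a median of 19.4. The medians were close, and 2 stimulated mice lay under the lowest control. The log2 fold change was -0.35 (SE 0.18, unadjusted p = 0.0628, edgeR).

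Fa2h puts a hydroxyl group on the fatty acid before it enters these lipids. Ctrl spanned 10.7 to 90.1 CPM with a median of 15.4, and stim 9.96 to 22.4 CPM with a median of 14.8. Only controls 9 and 11, at 90.1 and 50.4 CPM, exceeded the highest stimulated mouse. The log2 fold change was -0.70 (SE 0.32, unadjusted p = 0.0384, edgeR).

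Among the enzymes that supply the acyl chain, Cers2 joins very long chain fatty acids to the sphingoid base. It measured 60.3 to 159 CPM in ctrl with a median of 73.7 and 55.9 to 82.7 CPM in stim with a median of 64.5. In stim, 4 mice lay under the lowest control. The log2 fold change was -0.34 (SE 0.16, unadjusted p = 0.0394, edgeR).

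Elovl1 and Elovl7 are fatty acid elongases of the endoplasmic reticulum. Elovl7 had the least spread in stim, from 11.6 to 15.1 CPM with a median of 13.7, against 11.7 to 42.6 CPM with a median of 15.7 in ctrl. All 10 stimulated mice lay under the control median and 7 controls lay over the highest stimulated mouse, although the lowest values of the groups nearly met. The log2 fold change was -0.43 (SE 0.18, unadjusted p = 0.0265, edgeR). Elovl1 spanned 12.8 to 30.9 CPM in ctrl and 12.8 to 23.8 CPM in stim, with a log2 fold change of -0.17 (SE 0.15, unadjusted p = 0.268, edgeR).

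Sptlc2 and Degs1 had differences close to 0 in the fit on all 22 mice. Sptlc2, a catalytic subunit of serine palmitoyltransferase, measured 31.2 to 43.6 CPM in ctrl (median 34.4) and 31.5 to 41.5 CPM in stim (median 34.5). Its log2 fold change was 0.01, with bounds of -0.13 and 0.15 at 1.96 SE, and its sign was not stable across settings. Degs1, the desaturase that turns dihydroceramide into ceramide, measured 96.7 to 168 CPM in ctrl (median 138) and 112 to 151 CPM in stim (median 125). Its log2 fold change was -0.06, with bounds of -0.25 and 0.13.

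Aspa, the aspartoacylase of the acetate supply, ran from 10.6 to 53.8 CPM in ctrl with a median of 15.3 and from 9.69 to 17.7 CPM in stim with a median of 13.7. In stim, 7 mice lay under the control median and 4 controls lay over the highest stimulated mouse. The log2 fold change was -0.57 (SE 0.24, unadjusted p = 0.024, edgeR).

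When a term for the library-number run was added, 9 of 9 enzymes had a log2 fold change below 0 (Sptlc2 at 0.00), beside 47.4% of all genes, and 5 of 9 were lower at unadjusted p under 0.05, beside 5.45% of all genes. These were the same 5 genes as without the term. The lowest unadjusted p was that of Ugt8a (log2 fold change -0.82, SE 0.24, unadjusted p = 0.00182, adjusted p = 0.313, edgeR).

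Within the runs the enzymes differed in how they stood. Among library numbers 12 to 23, 7 of 9 were lower at unadjusted p under 0.05 (all but Sptlc2 and Degs1), beside 8.3% of all genes. Ugt8a there had a log2 fold change of -1.33 (SE 0.35) and Fa2h of -1.30 (SE 0.38). Among library numbers 1 to 11, 0 of 9 were lower at unadjusted p under 0.05, beside 3.34% of all genes. Ugt8a was at -0.23 (SE 0.12, unadjusted p = 0.0697) and Fa2h at 0.24 (SE 0.11, unadjusted p = 0.0521) there, both by edgeR. In that run Ugt8a measured 17.3 to 25.8 CPM in ctrl and 16.1 to 19.8 CPM in stim, while Fa2h measured 10.7 to 15.0 CPM in ctrl and 14.3 to 17.3 CPM in stim. A test of the difference between runs, the interaction of group and run in edgeR, gave 5 of 9 enzymes at unadjusted p under 0.05, beside 8.01% of all genes, and 0 at adjusted p under 0.05. Without controls 9 and 11 it gave 1 of 9, beside 3.83% of all genes.

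**Figure D2:**
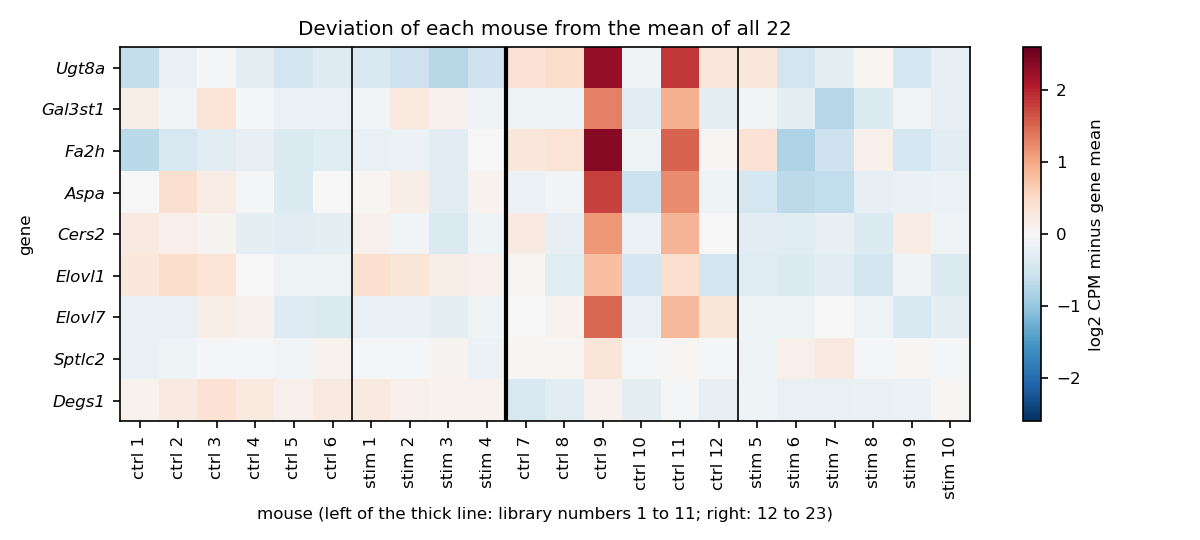
Deviation of each mouse (columns) from the mean of all 22 for each enzyme (rows), on the log2 CPM scale, with red above and blue below the mean and a thick line between the runs of library numbers. Controls 9 and 11 are the reddest columns in 6 of the rows, and in the Degs1 row all 10 mice of the earlier run lie above the mean, as do control 9 and stim 10 among the 12 of the later run.

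Controls 9 and 11 carried the highest values. Control 9 ranked first of 22 mice in 8 of the 9 enzymes (rank 8 in Degs1), and control 11 held rank 2 in 6 of them. For Ugt8a they were at 128 and 95.1 CPM, for Aspa at 53.8 and 37.1 CPM, and for Cers2 at 159 and 134 CPM. Without these mice the group fit called 0 of 9 enzymes lower at unadjusted p under 0.05, beside 2.04% of all genes, and the median log2 fold change of the 9 was -0.07. Ugt8a then stood at -0.26 (SE 0.15, unadjusted p = 0.0976, edgeR) and Fa2h at -0.05 (SE 0.15). Without them and with the run as a term, 1 of 9 was lower at unadjusted p under 0.05, beside 4.45% of all genes. This was Ugt8a, at a log2 fold change of -0.34 (SE 0.10, unadjusted p = 0.00199, adjusted p = 0.612, edgeR). Elovl7 was next at -0.16 (SE 0.08, unadjusted p = 0.0726). In the later run alone without them, 2 of 9 were lower at unadjusted p under 0.05, Ugt8a at -0.45 (SE 0.15) and Elovl7 at -0.27 (SE 0.12), beside 3.6% of all genes.

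**Figure D3:**
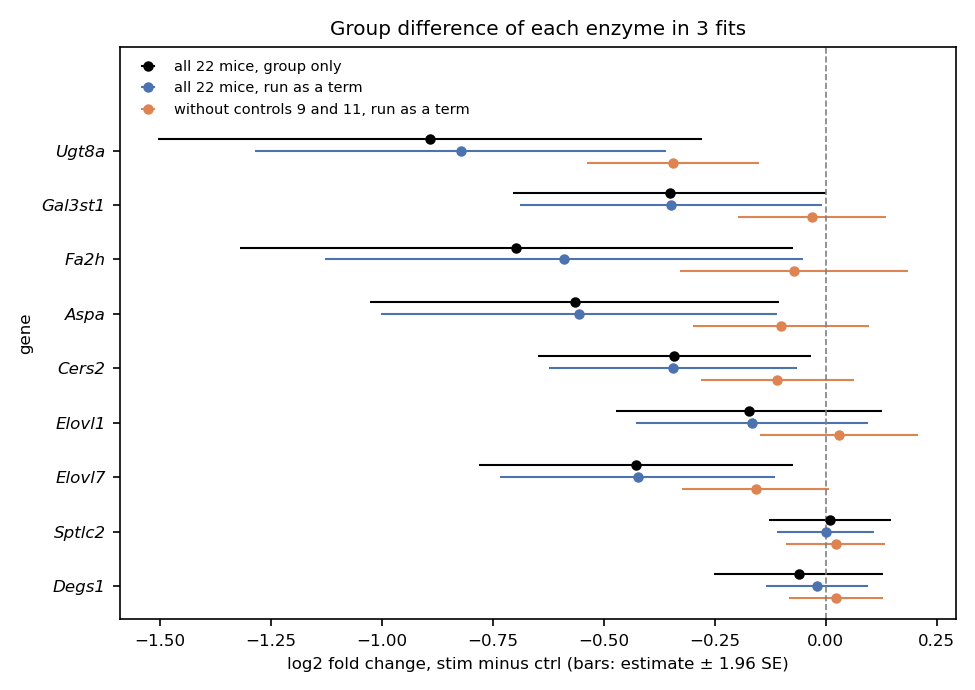
Log2 fold change of stim over ctrl for each enzyme in 3 edgeR fits (group, group with the run as a term, and the latter without controls 9 and 11, which was chosen after seeing the data), with bars of 1.96 SE to each side of the estimate. Ugt8a lies below 0 at -0.89, -0.82 and -0.34 and the bars of the other 8 genes include 0 in the third fit, but without those controls and without the run term, which is not drawn, Ugt8a is at -0.26 with bounds of -0.56 and 0.03.

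The 9 enzymes varied together with the oligodendrocyte markers, except Sptlc2 and Degs1. With each gene centred within its run, the mean of the 9 and the mean of the 35 markers had a Pearson r of 0.987 over 22 mice and of 0.918 over the 20 mice without controls 9 and 11. These r values are across mice that share library preparation and are given as a description. Per enzyme, r with the marker mean within runs was 0.978 for Aspa, 0.945 for Ugt8a, 0.943 for Gal3st1, 0.934 for Fa2h, 0.913 for Cers2, 0.889 for Elovl7 and 0.866 for Elovl1, but 0.562 for Degs1 and 0.253 for Sptlc2. Without controls 9 and 11 it was 0.842 for Aspa, 0.649 for Ugt8a and 0.347 for Elovl7, and it was -0.57 for Sptlc2. Among pairs of enzymes, Ugt8a and Fa2h had the highest r within runs over all 22 mice, 0.947, beside 0.919 for Cers2 and Elovl1. Without controls 9 and 11 these stood at 0.734 and 0.741, the pair of Cers2 and Elovl1 then being the higher.

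An edgeR fit of all 22 mice held group and, as a covariate, the marker mean, but no run term. In this fit 6 of 9 enzymes had a slope on the marker mean at adjusted p under 0.05, beside 1.45% of all genes. The slope, in log2 units of the gene per log2 unit of the marker mean, was 1.12 (SE 0.10) for Fa2h, 1.06 (SE 0.12) for Ugt8a, 0.90 (SE 0.07) for Aspa, 0.66 (SE 0.07) for Gal3st1, 0.61 (SE 0.08) for Elovl7 and 0.57 (SE 0.07) for Cers2. It was 0.41 (SE 0.11, adjusted p = 0.0587) for Elovl1, 0.07 (SE 0.06) for Sptlc2 and 0.05 (SE 0.09) for Degs1. For these 3, r with the marker mean without centring within runs was 0.672, 0.294 and 0.187. Slopes were not taken with a run term or without controls 9 and 11. Beside this covariate, group was at unadjusted p under 0.05 in 0 of 9 enzymes, against 2.21% of all genes, with Ugt8a at a log2 fold change of -0.12 (SE 0.16). With the run as a further term it was 1 of 9, against 7.93% of all genes, again Ugt8a (-0.24, SE 0.08, unadjusted p = 0.00822, adjusted p = 0.605, edgeR). In bulk tissue, fewer oligodendrocytes and less RNA per oligodendrocyte cannot be told apart.

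**Figure D4:**
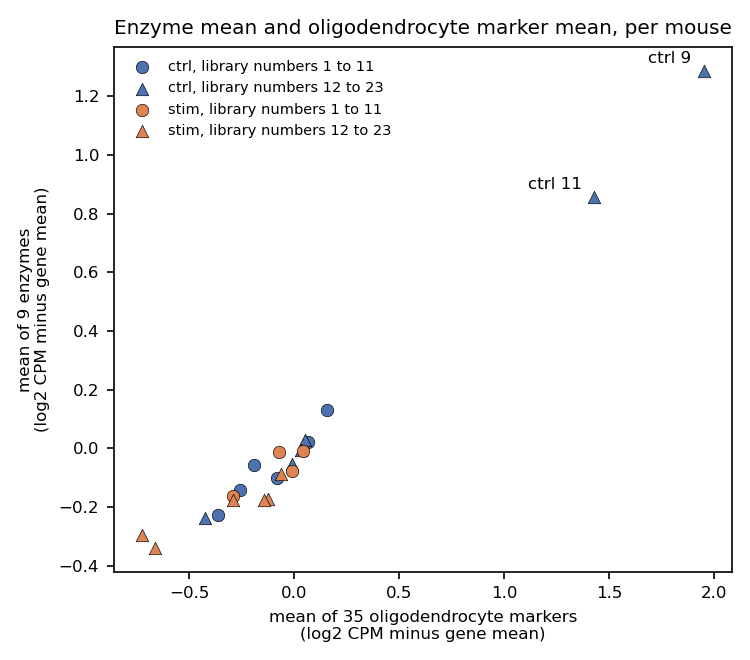
Mean of the 9 enzymes against the mean of the 35 oligodendrocyte markers in each mouse, both as log2 CPM centred on the mean of all 22 mice, with blue for ctrl, orange for stim and triangles for library numbers 12 to 23. Control 9 (1.29 and 1.95) and control 11 (0.86 and 1.43) lie away from the other 20 mice, which run along the same line at the lower left.

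The mean of the 9 enzymes was -0.24 to 1.29 in ctrl (median -0.03) and -0.34 to -0.01 in stim (median -0.17). The groups overlapped. The group means differed by -0.28, and by -0.09 without controls 9 and 11. Within library numbers 1 to 11 the means were -0.06 in both groups (difference 0.00), and within 12 to 23 they were 0.31 in ctrl and -0.21 in stim (difference -0.52).

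The oligodendrocyte markers themselves were lower in 35 of 35 genes, beside 47.5% of all genes, 23 of them at unadjusted p under 0.05, beside the 2.61% of all genes given above, and 0 at adjusted p under 0.05 (edgeR). The direction was not the same in both runs. Within library numbers 12 to 23, the run of controls 9 and 11, 35 of 35 were lower (median log2 fold change -1.24), beside 50% of all genes. Of them 33 were lower at unadjusted p under 0.05, beside 8.3% of all genes. Within 1 to 11, 14 were lower and 21 higher (median 0.04), beside 48.8% of all genes lower. At that threshold 0 were lower there, beside 3.34% of all genes, and 1 was higher, beside 2.21%. This was the transcription factor gene Sox10 (0.27, SE 0.09), which was named after its value was seen. The lowest p values belonged to Mobp (log2 fold change -0.96, SE 0.32), Ermn (-0.83, SE 0.29) and Mbp (-0.79, SE 0.29), which encode proteins of the myelin sheath and its cytoskeleton. When controls 9 and 11 were left out, 29 of 35 were lower, beside 50.1% of all genes, and 0 passed unadjusted p under 0.05. Among the genes outside the 9 whose levels followed the enzyme mean most closely within runs were Mal (r = 0.989), Ermn (0.984), Cnp (0.984) and Mag (0.980), over 22 mice, each of them in the marker list.

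Other genes of the same pathways were split between both directions. Of 65 genes in 5 lists, 63 were tested (Sptlc3 and Elovl3 were under the count minimum), 29 were lower and 34 higher in stim, and 2 were lower and 0 higher at unadjusted p under 0.05, beside the 2.61% of all genes lower at that threshold. The median log2 fold change of the 63 was 0.01. In the list of sphingoid base and ceramide synthesis, 7 of 13 were lower and 0 passed. Its lowest p values belonged to Sptssb (-0.41, SE 0.23) and Sptssa (-0.38, SE 0.22), small subunits of serine palmitoyltransferase. Among other ceramide products and breakdown, 6 of 14 were lower and 1 passed, the alkaline ceramidase Acer3 (-0.22, SE 0.10, unadjusted p = 0.0303, edgeR), followed by the acid sphingomyelinase Smpd1 (0.12, SE 0.07). Among fatty acid synthesis, elongation and desaturation, 9 of 22 were lower and 0 passed, with Fads3 (0.16, SE 0.08) and Acsl5 (0.14, SE 0.09) at the lowest p. Of the N-acetylaspartate and acetate genes, 3 of 7 were lower and 1 passed, Folh1 (-0.47, SE 0.21, unadjusted p = 0.0306, edgeR), which encodes the carboxypeptidase that splits N-acetylaspartylglutamate. The other named gene there was the carboxylate transporter Slc13a3 (0.29, SE 0.22). Of the sugar and sulfate donor genes, 4 of 7 were lower and 0 passed, with Slc35b3 (-0.10, SE 0.10) and Slc35a2 (0.06, SE 0.07) at the lowest p. Without controls 9 and 11, Acer3 stood at -0.25 (unadjusted p = 0.0183) and Folh1 at -0.27 (unadjusted p = 0.159), while Sptssa then passed at -0.46 (unadjusted p = 0.0472), by edgeR.

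Markers of other cell types were read in the same fits. Those named here were picked after their values were seen, for passing unadjusted p under 0.05 in a fit, except the choroid plexus markers Kcnj13 and Folr1. In the group fit at unadjusted p under 0.05, 0 of 8 progenitor, 0 of 10 neuron, 0 of 10 astrocyte, 0 of 10 microglia and 0 of 10 endothelial markers differed between groups. The counts at this threshold were also 0 without controls 9 and 11. By sign, astrocyte markers were lower in 10 of 10 (median log2 fold change -0.11) and neuron markers higher in 10 of 10 (median 0.13). Without controls 9 and 11, astrocyte markers were lower in 7 and higher in 3 (median -0.05) and neuron markers higher in 9 of 10 (median 0.13). With the replicate block, astrocyte markers were lower in 4 and higher in 6 (median 0.01) and neuron markers higher in 9 of 10 (median 0.12). With the run as a term, 3 of 10 neuron markers (Slc17a7, Stmn2 and Thy1) were higher in stim at unadjusted p under 0.05, beside 6.05% of all genes. In the same fit 1 of 10 astrocyte markers (Slc4a4) and 1 of 8 progenitor markers (Ptprz1) were lower, beside 5.45% of all genes. Library numbers 12 to 23 were the run in which 7 of 9 enzymes were lower. There 3 of 8 progenitor markers (Pdgfra, Gpr17 and Vcan) and 1 of 10 astrocyte markers (Slc4a4) were lower at that threshold, beside 8.3% of all genes. The same 3 neuron markers and 1 of 10 endothelial markers (Cdh5) were higher, beside 4.06% of all genes. By sign, 5 endothelial markers were lower and 5 higher there (median log2 fold change 0.01). Within 1 to 11, 1 of 10 endothelial markers (Kdr) was lower at that threshold, beside 3.34% of all genes, and 10 of 10 were lower by sign. Summed neuron markers spanned 9394 to 14925 CPM in ctrl and 9912 to 15707 CPM in stim. Of the choroid plexus markers, genes of an epithelium that lies outside the cortex, 3 were tested, and Folr1 was under the count minimum. Ttr and Clic6 were lower in stim at unadjusted p under 0.05, with and without controls 9 and 11. The other marker tested, Kcnj13, was higher and did not pass, at a log2 fold change of 0.29 (SE 0.41). It was at 0.19 without controls 9 and 11 and at 0.69 within 12 to 23. Within library numbers 12 to 23 Ttr was at a log2 fold change of -2.30 (SE 0.37) and Clic6 at -2.19 (SE 0.44). Within 1 to 11 neither passed (Ttr -1.45, SE 0.96, and Clic6 0.00, SE 0.41). Nor did Ttr and Clic6 pass with the replicate block (unadjusted p = 0.0703 for Ttr and 0.117 for Clic6, edgeR), which leaves out controls 11 and 12. The summed level of the choroid plexus markers was 6.24 to 131 CPM in ctrl, highest in control 3, and 2.78 to 15.6 CPM in stim. The part of these other cells in the enzyme differences was not tested.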

How the data were processed

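Total RNA of bulk ACC tissue was made into libraries with the SMARTSeq v4 kit, which keeps no strand. Per the submitters' processing notes and the methods, the authors trimmed reads (cutadapt 1.10), aligned them to mm10 (STAR 2.5.3a) and counted them per gene (HTSeq 0.6.1p1). The deposited table holds raw counts, used here, and signal columns of counts that the authors divided by size factors (DESeq2 1.22.1), not used here. The table's fold change and p-value columns of the authors' own comparison were not used.

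The count minimum was 10, reached in 10 or more mice. Group was tested with edgeR 4.0.16 (quasi-likelihood, TMM, Benjamini-Hochberg over all genes tested) in R 4.3.3. The study's model held RNA integrity and batch, which the labels do not give, so group was the only term. Alternatives were DESeq2 1.42.0, limma 3.58.1 (voom, quality weights), other count minimums, the run of library numbers, each run, the replicate block, and leaving out mice. CPM used TMM library sizes, log2 CPM a prior count of 2, and TPM the summed exons of GENCODE M21, which held 37772 of 37786 IDs. Promoter sequences are from RefSeq GRCm38.p6. The fits were also run on simulated data with known changes. Those data held no run shift shared by both groups and no mice like controls 9 and 11, so these features were not tested.

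The 9 enzymes and the gene lists were chosen with earlier results of these data known. Named genes are the 9, the 2 of each pathway list and 4 of the oligodendrocyte list with the lowest p, and the 5 most like the enzyme mean. Single markers of other cell types, and Sox10, fall outside this rule and were named after their values were seen. A gene these rules name is not reported here. Mice are separate animals. Intervals give the uncertainty of the estimated log2 fold change, which rests on the variation between mice. They do not span the values of single mice.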

Additional observations from a re-analysis of the deposited data

Results flagged for a closer look

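In an interaction test (edgeR, group by run), the group difference of 5 enzymes differed between the runs of library numbers at unadjusted p under 0.05. The share of all genes at that threshold was 8.01%. The log2 fold change of the later run (12 to 23) minus that of the earlier run (1 to 11) was -1.49 (SE 0.47, unadjusted p = 0.0038) for Fa2h, -1.05 (SE 0.43, unadjusted p = 0.0217) for Ugt8a, -0.97 (SE 0.42, unadjusted p = 0.0295) for Aspa, -0.70 (SE 0.32, unadjusted p = 0.0414) for Gal3st1 and -0.66 (SE 0.29, unadjusted p = 0.0332) for Elovl7. The adjusted p values of these 5 ran from 0.55 to 0.607, so 0 passed the correction. Without controls 9 and 11, 1 enzyme remained at unadjusted p under 0.05, beside 3.83% of all genes. This was Fa2h, at -0.61 (SE 0.24, unadjusted p = 0.0174, adjusted p = 1, edgeR). Ugt8a then stood at -0.22 (SE 0.20). No stimulated mouse stood apart from the other 9 in any of the enzymes by Dixon's test.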

How the results depend on the processing

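At adjusted p under 0.05 the count of enzymes was 0 under every alternative run. At unadjusted p under 0.05 it was 5 of 9 and fell to 1 with the replicate block, to 0 within library numbers 1 to 11 or without controls 9 and 11, to 1 without them with the run term and to 2 within 12 to 23 without them, and was 4 to 7 under the other alternatives. The share of all genes lower at that threshold, 2.61% by the group fit, was 3.66% with the block, 5.59% with limma voom, 2.9% with DESeq2, 3.94% with no count minimum and 2.17% with 10 counts in every mouse. Leaving out 1 mouse gave 1 to 6 enzymes, beside 1.93% to 3.54% of all genes, with 1 without control 9 or control 11 and 3 without stim 3, 6 or 7. Enzymes lower numbered 5 within 1 to 11, beside 48.8% of all genes, and 8 to 9 with 1 mouse left out, beside 45.2% to 50.3%. Oligodendrocyte markers lower at that threshold, 23 of 35, numbered 8 with the replicate block, 0 within 1 to 11 or without controls 9 and 11, 3 without them with the run term, 8 within 12 to 23 without them, and 7 to 26 with 1 mouse left out, the lowest being 7 without control 9 and 9 without control 11. Pathway genes at that threshold, 2 of 63, numbered 4 with DESeq2, 10 with limma voom, 5 with the replicate block, 5 with the run term, 6 within 12 to 23, 5 with DESeq2 and the run term, and 0 to 4 with 1 mouse left out, 0 being without stim 8, 1 without control 2, 9, 11 or 12 or stim 5, and 4 without control 8 or 10 or stim 2 or 3. With the marker mean and the run in the fit the count of enzymes was 1 in place of 0. In the interaction it was 1 without controls 9 and 11 in place of 5.

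Signs turned within 1 to 11 for Gal3st1 (0.05), Fa2h (0.24) and Elovl1 (0.12), and without controls 9 and 11 with the run term for Elovl1 (0.03) and Degs1 (0.02). Degs1 was 0.00 within 12 to 23 and 0.13 there without those controls. Sptlc2 was -0.01 with 10 counts in every mouse, 0.00 with the run term, -0.05 within 12 to 23, and -0.02 to 0.03 with 1 mouse left out. Leaving out control 9 or control 11 ended the unadjusted call of Fa2h (-0.32 and -0.55), Aspa (-0.34 and -0.45), Cers2 (-0.22 and -0.26) and Elovl7 (-0.25 and -0.36). That of Fa2h was also lost with limma voom (-0.46), DESeq2 with the run term (-0.58) and without stim 3, 6, 7, 9 or 10 (-0.69 to -0.64), and that of Cers2 without stim 3, 5, 6, 7 or 8 (-0.33 to -0.32). Gal3st1 passed unadjusted p under 0.05 without control 5, 6, 10 or 12 or stim 2 (-0.40 to -0.38) and by DESeq2 with the run term (-0.35). Ugt8a kept its call with any 1 mouse left out (-0.98 to -0.58) and with limma voom (-0.55, unadjusted p = 0.0419). With the replicate block, which also leaves out controls 11 and 12, the call was lost (-0.41, unadjusted p = 0.0965, edgeR). Cers2 was then left (-0.22, unadjusted p = 0.0419, edgeR). The cause of these shifts was not tested.

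The replicate block used replicates 1 to 10 of each group. Same-numbered mice are separate animals, their deviations had a mean r of 0.308 (8 of 10 pairs over 0.1, lowest -0.37) and 0.0511 within runs, and 2 stimulated mice were closest to their own number, so the numbers were not taken as pairs. The alternatives that leave out both controls with the run term or in the later run, DESeq2 with the run term, and the interaction without both were chosen after seeing the data.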
